A study of Mus musculus with 6 samples.

Results

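The WNT genes described here are 55 mouse genes of 18193 measured, read by 108 of 34945 probe sets that carry a single gene symbol. They were taken by symbol: every Wnt, Fzd, Sfrp, Dkk and Rspo gene with such a probe set, together with Lrp5, Lrp6, Lgr4, Lgr5, Frzb, Wif1, Notum, Ctnnb1, Lef1, Tcf7l1, Tcf7l2, Axin2, Nkd1 and Sp5. Tcf7, which the same rule lists, was not analysed here. By role they were 19 Wnt ligands, 4 R-spondins, 14 receptors and co-receptors, 11 secreted antagonists, 4 intracellular effectors and 3 feedback and target genes. RNA came from mouse embryos of mixed background at embryonic day 9.5, and the sample names carry the mark Wt in all 3 tissues. Cells of the heart tube, the caudal-half tissue of the embryo and the yolk sac were sorted as CD31+/CD41-/CD45-, a gate that enriches endothelium and leaves out cells with the platelet and early blood marker CD41 or the leukocyte marker CD45. Each tissue gave 2 biological replicates, each on its own Affymetrix array, and how many embryos gave a sample is not stated. Nor do the labels say whether the heart tube was freed of its myocardium before sorting or which structures the caudal-half tissue held.

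WNT ligands are secreted lipid-modified proteins that bind Frizzled receptors, with Lrp5 or Lrp6 as co-receptors in the branch that runs through beta-catenin. Stabilised beta-catenin, the product of Ctnnb1, then acts in the nucleus with the Tcf and Lef factors, and Axin2 is among the genes it induces in many tissues. R-spondins raise the number of Frizzled receptors at the cell surface, secreted Sfrp and Frzb proteins bind ligands, and Dkk1 blocks the Lrp co-receptors. In the vasculature this pathway is best known from brain and retinal vessels, and in the heart from the forming valves, where endocardial cells become mesenchyme.

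All levels below are the authors' RMA values, taken as the natural log of the deposited signal and read as log2. If the deposited signals are linear instead, each difference is larger by a factor of 1.44, with the same p-values. Replicate arrays correlated at r = 0.981 to 0.986 over all probe sets that are not controls, and arrays of different tissues at 0.946 to 0.969. A difference was called where limma's adjusted p, corrected over all genes by Benjamini and Hochberg's method, was under 0.05. Probe sets for bacterial RNAs read 1.33 to 4.03, which serves to describe weak signals: 29 WNT genes read above that range on all 6 arrays, 16 on some, and 10 lay within it on all. Levels of different genes are not compared, since each probe set has its own affinity.

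Pecam1, which encodes CD31, the surface protein of the sort, read 9.49 and 9.61 in heart tube cells, 10.08 and 9.83 in caudal-half cells, and 10.09 and 9.82 in yolk sac cells, and was not called in any comparison. Markers of other cell types differed between the tissues. The mean level of 12 endothelial genes was 9.01 and 9.14 on the heart tube arrays, 9.85 and 9.91 on the caudal-half arrays, and 10.1 and 10.2 on the yolk sac arrays. For 10 cardiomyocyte genes it was 7.09 and 6.92 in heart tube cells, 4.99 and 4.92 in caudal-half cells, and 4.38 and 4.12 in yolk sac cells, with Nkx2-5 within the bacterial range on every array. For 10 mesenchymal genes it was 7.40 and 7.40 in heart tube cells, 5.83 and 5.75 in caudal-half cells, and 7.61 and 7.42 in yolk sac cells. The cardiomyocyte list thus had its highest mean in heart tube cells, and the mesenchymal list its lowest mean in caudal-half cells. The mean over 10 visceral endoderm genes was 4.25 and 4.28 in heart tube cells, 4.67 and 4.56 in caudal-half cells, and 8.93 and 8.94 in yolk sac cells. The mean over 8 epithelial genes was 4.75 and 4.78 in heart tube cells, 6.80 and 6.60 in caudal-half cells, and 7.68 and 7.59 in yolk sac cells. In bulk samples fewer cells of a type and less RNA per cell cannot be told apart.

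**Figure D1:**
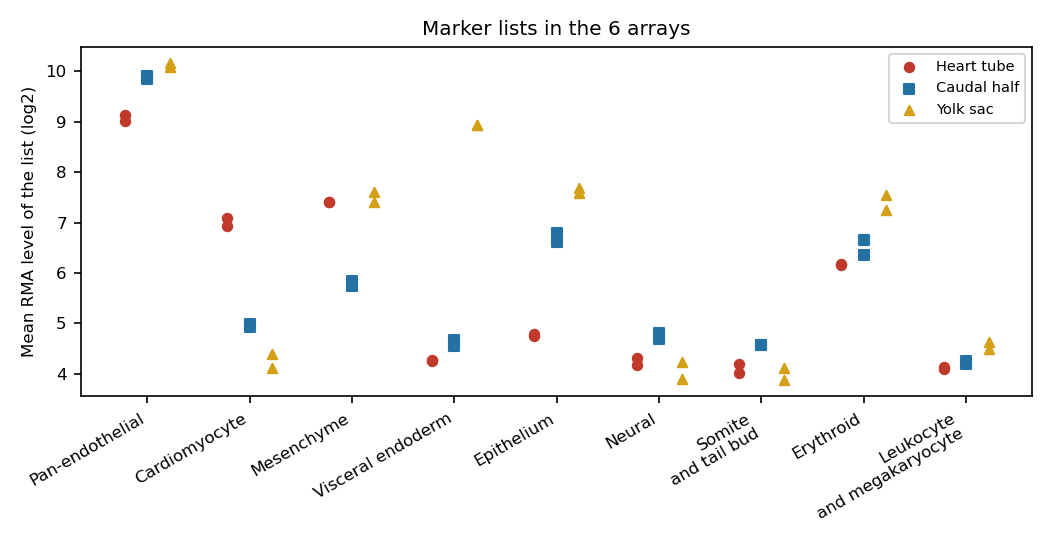
Mean level of each marker list (log2) on each of the 6 arrays, as circles (heart tube), squares (caudal-half) and triangles (yolk sac), 2 points per tissue. The cardiomyocyte list reads 7.09 and 6.92 in the heart tube, and the visceral endoderm list 8.93 and 8.94 in the yolk sac.

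Of the 55 WNT genes, 18 were called in at least 1 comparison. Heart tube cells differed from yolk sac cells in 17 of them, of which 15 were higher (Axin2, Dkk1, Dkk3, Frzb, Fzd1, Fzd2, Fzd3, Fzd6, Fzd7, Lef1, Lgr4, Sfrp2, Wnt2b, Wnt4 and Wnt5a) and 2 lower (Rspo3 and Tcf7l1). That is 30.9% of the WNT genes; over all genes 11.8% were called, 5.14% as higher and 6.67% as lower. Heart tube cells differed from caudal-half cells in 8 WNT genes, 6 higher and 2 lower, or 14.5%, against 5.51% of all genes (2.86% higher and 2.65% lower). Caudal-half cells differed from yolk sac cells in 8, 7 higher and 1 lower, again 14.5%, against 9.08% of all genes (4.22% higher and 4.86% lower). The share of WNT genes called higher lay above the background in each comparison. The share called lower did not for heart tube or caudal-half against yolk sac cells, with 2 of 55 and 1 of 55 genes.

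The median signed difference over all 55 was -0.03 for heart tube minus caudal-half cells, 0.04 for heart tube minus yolk sac cells and 0.12 for caudal-half minus yolk sac cells, against -0.08, -0.06 and 0.02 over all genes. Among the 18 called genes the mean was highest in heart tube cells for 11, in caudal-half cells for 5 and in yolk sac cells for 2, and it was lowest in yolk sac cells for 15. 6 genes were called higher in heart tube cells against both other tissues: Wnt5a, Fzd1, Fzd2, Dkk1, Dkk3 and Frzb. Another 6, Axin2, Lef1, Sfrp2, Fzd3, Fzd6 and Fzd7, were called higher than in yolk sac cells in both heart tube and caudal-half cells. The comparisons share arrays, so these patterns are not independent counts. Neither the number called in at least 1 comparison nor these orders and patterns were counted over all genes. No background share therefore stands beside them. Leaving out 1 array lowered the counts: heart tube against caudal-half cells gave 4 called genes without heart tube replicate 1 and 3 without heart tube replicate 2 or caudal-half replicate 1. Heart tube against yolk sac cells gave 8 without heart tube replicate 1 and 11 without heart tube replicate 2. Caudal-half against yolk sac cells gave 4 without caudal-half replicate 2 or yolk sac replicate 1, and 5 without any of the other arrays.

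**Figure D2:**
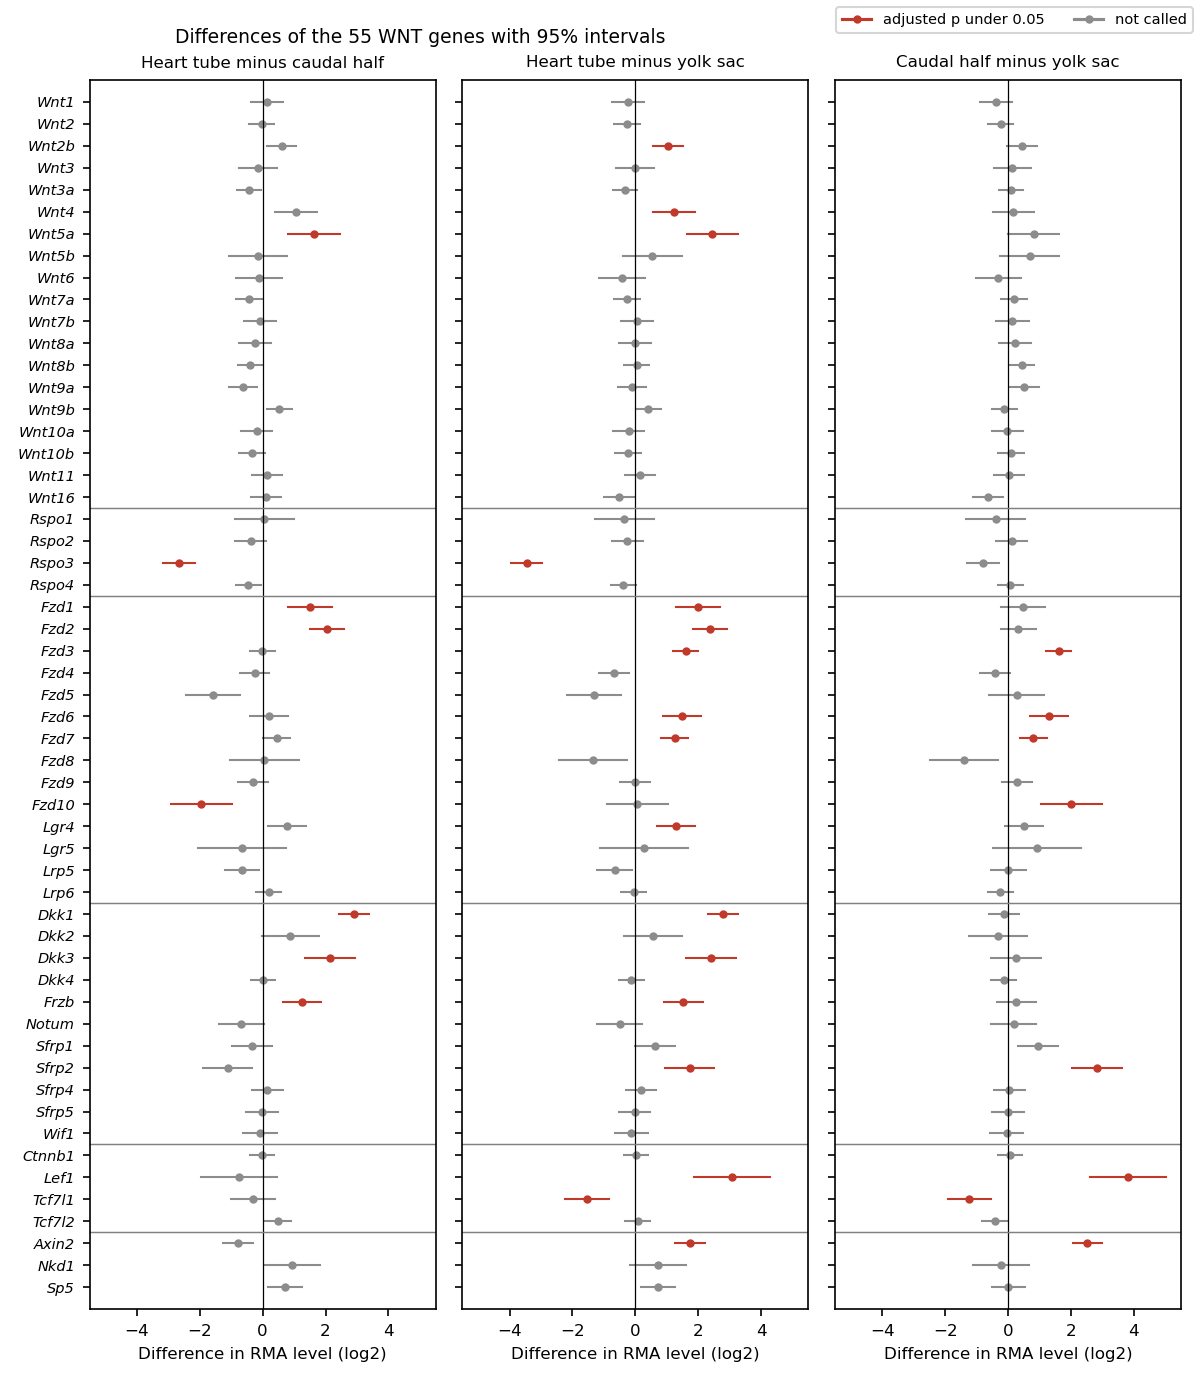
Difference in level (log2, points) with its 95% interval (lines) for each of the 55 WNT genes, grouped by role, in 1 panel per comparison, with genes called by limma at an adjusted p under 0.05 in red and the rest in grey. The called points of heart tube minus yolk sac lie to the right of 0 for 15 genes and to the left for Rspo3 and Tcf7l1.

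**Figure D3:**
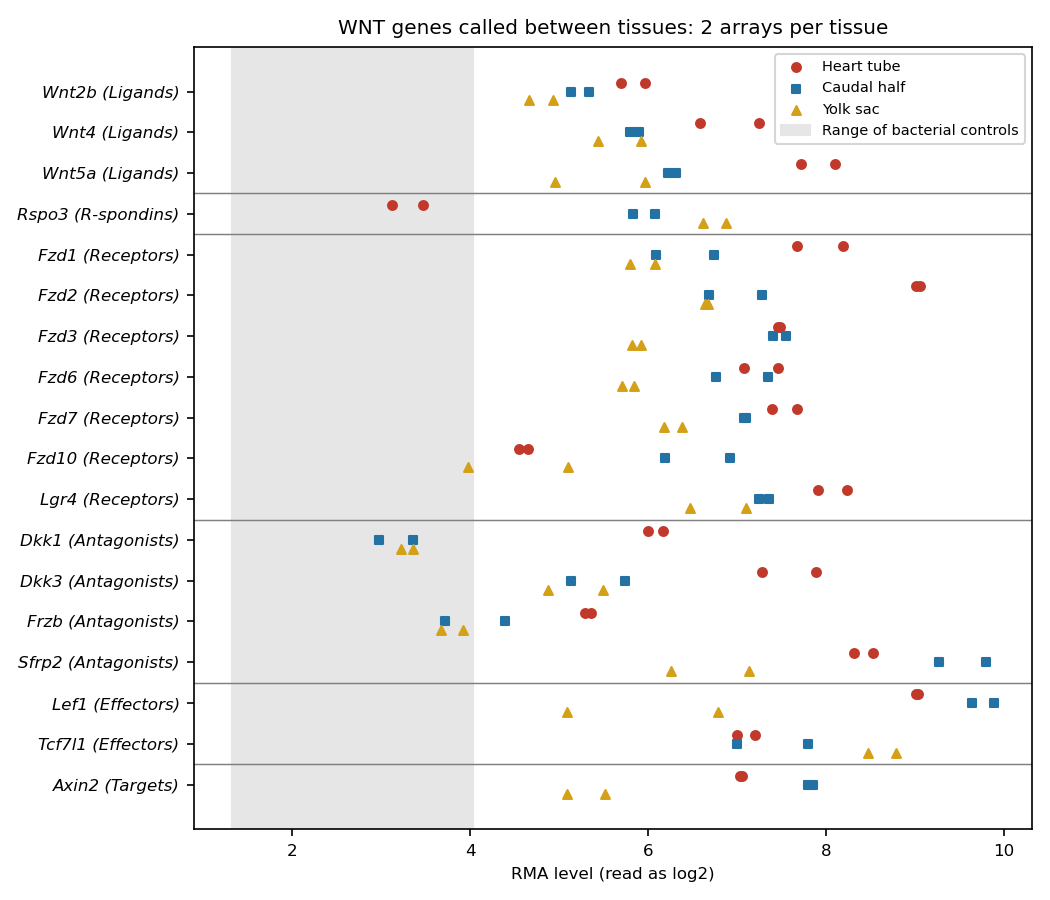
Levels (log2) of the 18 called WNT genes on each of the 6 arrays, 1 gene per line, with circles for the heart tube, squares for caudal-half, triangles for the yolk sac and a grey band for the range of the bacterial controls. Dkk1 and Fzd2 stand high in the heart tube alone, Rspo3 stands low there, and Lef1 and Axin2 stand low in the yolk sac.

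Among the Wnt ligands, 3 of 19 were called, all 3 higher in heart tube than in yolk sac cells, and 1 of them, Wnt5a, also higher than in caudal-half cells. Wnt5a, a ligand that acts largely without beta-catenin, read 7.72 and 8.11 in heart tube cells, 6.31 and 6.23 in caudal-half cells, and 5.97 and 4.95 in yolk sac cells. Its tissues did not overlap, and the yolk sac arrays lay farthest apart. The weakest of its 4 probe sets, within the bacterial range, ran the other way between the embryonic tissues. That probe set read 2.62 and 2.45 in heart tube cells and 3.73 and 3.27 in caudal-half cells. With the brightest probe set the difference was 1.64 ± 0.34 (SE) from caudal-half cells (limma adjusted p = 0.0462) and 2.45 ± 0.34 from yolk sac cells (adjusted p = 0.00663). The first of these calls was near the threshold: it was lost without either heart tube array (adjusted p = 0.135 without replicate 1 and 0.205 without replicate 2), without either caudal-half array (0.18 and 0.161), after quantile normalization (0.0578), and with the mean of its 4 probe sets (difference 0.82, adjusted p = 0.107).

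Wnt4, a ligand of kidney and gonad development, read 7.24 and 6.58 in heart tube cells, 5.90 and 5.80 in caudal-half cells, and 5.44 and 5.92 in yolk sac cells. Both heart tube arrays stood above all others, and the other 2 tissues overlapped. The difference from yolk sac cells was 1.23 ± 0.28 (adjusted p = 0.0353), and that from caudal-half cells, 1.06 ± 0.28 (95% interval 0.40 to 1.73), missed the threshold at 0.0891. Its second probe set gave a wider gap, with 7.41 and 7.79 in heart tube cells, 4.53 and 4.51 in caudal-half cells, and 4.99 and 4.87 in yolk sac cells. With the mean of both probe sets the difference was 2.07 from caudal-half cells (adjusted p = 0.000679) and 1.95 from yolk sac cells (0.000467), so the choice of probe set decides whether Wnt4 counts as higher than in caudal-half cells. With the brighter probe set the yolk sac call was lost without heart tube replicate 1 (adjusted p = 0.153), yolk sac replicate 1 (0.144) or 2 (0.0524), and without either caudal-half array or with only these 2 tissues in the fit (0.067).

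Wnt2b, a close relative of Wnt2, read 5.70 and 5.97 in heart tube cells, 5.34 and 5.13 in caudal-half cells, and 4.93 and 4.66 in yolk sac cells, with no overlap. It was called only between the extremes, at 1.04 ± 0.20 above yolk sac cells (adjusted p = 0.0203), a call lost without heart tube replicate 1 (0.0623), heart tube replicate 2 (0.116) or yolk sac replicate 2 (0.083). The remaining 16 ligands read between 1.67 and 5.23 on every array, their largest difference was 0.68, and 7 lay within the bacterial range on all arrays. Wnt2, a ligand of early heart and lung progenitors, was among those 7, at 3.26 and 3.46 in heart tube cells, 3.33 and 3.46 in caudal-half cells, and 3.61 and 3.64 in yolk sac cells. Wnt11, a ligand of heart development that acts largely without beta-catenin, read 5.01 and 4.99 in heart tube cells, 4.87 and 4.88 in caudal-half cells, and 4.62 and 5.07 in yolk sac cells, and was not called. Between caudal-half and yolk sac cells 0 of the 19 ligands were called by limma, 3 had an unadjusted p under 0.05, and limma-trend also called 0. With the mean of its probe sets Wnt5a passed there (0.97, adjusted p = 0.0494). Of all genes 9.08% were called by limma in that comparison. The called ligands made up 5.26% of ligands for heart tube against caudal-half cells and 15.8% for heart tube against yolk sac cells, beside 5.51% and 11.8% of all genes, so both shares were near the background.

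Of the 4 R-spondins, Rspo3 alone was called, and it had the lowest adjusted p of all WNT genes. It was called for heart tube against both other tissues, where 5.51% (caudal-half) and 11.8% (yolk sac) of all genes were called. Rspo3 binds Lgr receptors and is needed for embryonic and placental vessels in the mouse. It read 3.47 and 3.12 in heart tube cells, 5.84 and 6.08 in caudal-half cells, and 6.62 and 6.88 in yolk sac cells. Both heart tube arrays lay within the bacterial range, and every array of the other tissues was above it. By this probe set the differences are at least 1.93 from caudal-half and 2.72 from yolk sac cells. These are the distances of those means from the top of the range. Rspo3 averaged 3.30 ± 0.25 in heart tube cells, 5.96 ± 0.17 in caudal-half cells and 6.75 ± 0.19 in yolk sac cells (SD, n = 2 each). It was lower in heart tube cells, with a difference of -2.66 ± 0.21 from caudal-half cells (adjusted p = 0.00139) and -3.45 ± 0.21 from yolk sac cells (adjusted p = 0.000298). The step between caudal-half and yolk sac cells, -0.79 ± 0.21 (95% interval -1.29 to -0.29), missed the threshold at 0.0684. Its second probe set was weak in all samples, at 2.86 to 3.67, and with the mean of both the differences were -1.60 and -1.85 (adjusted p = 0.0031 and 0.000929) and -0.25 for the uncalled step. Both calls were kept without any single array. Rspo1, Rspo2 and Rspo4 read 2.01 to 4.71 with no difference above 0.45, and between caudal-half and yolk sac cells limma and limma-trend called 0 of the 4, with 1 at an unadjusted p under 0.05. Of all genes 9.08% were called by limma in that comparison.

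The receptors held the most called genes, 7 of 14, with 21.4% called for heart tube against caudal-half cells, 42.9% for heart tube against yolk sac cells and 28.6% for caudal-half against yolk sac cells, beside 5.51%, 11.8% and 9.08% of all genes. Of the 10 Frizzled genes, Fzd1 and Fzd2 were higher in heart tube cells against both other tissues, Fzd3, Fzd6 and Fzd7 were higher in both embryonic tissues than in yolk sac cells, and Fzd10 was higher in caudal-half cells than in both others. Fzd2 read 9.06 and 9.02 in heart tube cells, 6.69 and 7.28 in caudal-half cells, and 6.68 and 6.64 in yolk sac cells. Only the heart tube stood apart, since a caudal-half array lay beside the yolk sac ones. The difference was 2.05 ± 0.23 from caudal-half cells (adjusted p = 0.00516) and 2.38 ± 0.23 from yolk sac cells (adjusted p = 0.0016). Both calls held in all alternatives, although only 1 of its 3 probe sets was called and the mean of the 3 gave 1.16 and 1.03.

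Fzd1, a receptor able to signal through beta-catenin, read 7.67 and 8.20 in heart tube cells, 6.10 and 6.74 in caudal-half cells, and 6.08 and 5.80 in yolk sac cells. The heart tube arrays were again the highest and the other tissues lay close together without overlap. The difference was 1.51 ± 0.29 from caudal-half cells (adjusted p = 0.0358) and 1.99 ± 0.29 from yolk sac cells (adjusted p = 0.00779). The first was 0.95 with the mean of both probe sets (adjusted p = 0.0223) and lost its call without heart tube replicate 1 (0.0811), heart tube replicate 2 (0.169) or caudal-half replicate 1 (0.153), and without either yolk sac array or with only these 2 tissues (0.0558).

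Fzd3, a receptor that also acts in planar polarity, separated yolk sac cells from both embryonic tissues. It read 7.48 and 7.46 in heart tube cells, 7.56 and 7.41 in caudal-half cells, and 5.83 and 5.92 in yolk sac cells. The first 2 tissues overlapped and the third lay far below them: the difference from yolk sac cells was 1.60 ± 0.16 for heart tube cells (adjusted p = 0.00207) and 1.61 ± 0.16 for caudal-half cells (adjusted p = 0.0032). All 6 of its probe sets had the same direction in both comparisons. Fzd6, which also acts in planar polarity, read 7.46 and 7.08 in heart tube cells, 6.77 and 7.35 in caudal-half cells, and 5.70 and 5.84 in yolk sac cells, with the yolk sac arrays again the lowest and the other tissues overlapping. It was 1.5 ± 0.25 higher in heart tube cells (adjusted p = 0.0132) and 1.29 ± 0.25 higher in caudal-half cells (adjusted p = 0.0281) than in yolk sac cells. Averaged over its 3 probe sets these were 0.71 (adjusted p = 0.0455) and 0.69 (0.0604). The heart tube call was lost without heart tube replicate 1 (0.0844) or yolk sac replicate 1 (0.0663), and the caudal-half call without caudal-half replicate 2 (0.106), yolk sac replicate 1 (0.117) or yolk sac replicate 2 (0.0803).

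Fzd7, a beta-catenin-coupled receptor of early embryos, read 7.67 and 7.40 in heart tube cells, 7.10 and 7.08 in caudal-half cells, and 6.18 and 6.39 in yolk sac cells. The tissues formed 3 steps without overlap, of which the first was not called (adjusted p = 0.244). It was 1.25 ± 0.18 higher in heart tube cells (adjusted p = 0.00775) and 0.80 ± 0.18 higher in caudal-half cells (adjusted p = 0.0435) than in yolk sac cells. Its second probe set read 3.53 to 4.25 and leaned the other way, and the mean of both gave 0.40 (adjusted p = 0.124) and 0.37 (0.17), neither called. The heart tube call was also lost without heart tube replicate 1 (0.0564). The caudal-half call was lost without any single array, with an adjusted p of 0.0691 without either heart tube array or with only these 2 tissues, 0.158 and 0.142 without caudal-half replicate 1 and 2, and 0.165 and 0.084 without yolk sac replicate 1 and 2.

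Fzd10, a receptor able to signal through beta-catenin, was called higher in caudal-half cells against both other tissues. It read 4.66 and 4.55 in heart tube cells, 6.92 and 6.19 in caudal-half cells, and 3.98 and 5.10 in yolk sac cells. Both caudal-half arrays stood above all others, and the yolk sac arrays spanned the heart tube ones. Heart tube minus caudal-half cells was -1.95 ± 0.40 (adjusted p = 0.0458) and caudal-half minus yolk sac cells 2.01 ± 0.40 (adjusted p = 0.0302, 1.34 with the mean of both probe sets at 0.0166). The first call was lost without any heart tube or caudal-half array (adjusted p = 0.181 and 0.185 without heart tube replicate 1 and 2, 0.206 and 0.0793 without caudal-half replicate 1 and 2) and after quantile normalization (0.0528). The second was lost without caudal-half replicate 1 (0.143) or 2 (0.062), yolk sac replicate 1 (0.083), and without either heart tube array or with only these 2 tissues (0.0614).

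Lgr4, a receptor of R-spondins, read 8.23 and 7.91 in heart tube cells, 7.25 and 7.36 in caudal-half cells, and 6.47 and 7.10 in yolk sac cells. It ran in the order of the tissues with no overlap, and only the outer step was called, at 1.28 ± 0.25 above yolk sac cells (adjusted p = 0.0229). The call was lost without heart tube replicate 1 (0.129), heart tube replicate 2 (0.0681) or yolk sac replicate 1 (0.0775), and with the mean of both probe sets (0.71, adjusted p = 0.12). Fzd4, the receptor of norrin in retinal vessels, read 8.57 and 8.84 in heart tube cells, 8.80 and 9.12 in caudal-half cells, and 9.31 and 9.46 in yolk sac cells. Its order was the opposite one, but heart tube minus yolk sac cells, -0.68 ± 0.20 (95% interval -1.15 to -0.20), missed the threshold at 0.08. It passed with the mean of its 3 probe sets (0.025) and with limma-trend (0.0313).

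Fzd5, a receptor needed for yolk sac vessels in the mouse, is named after its values were seen, since it had the largest uncalled difference of the receptors. It read 5.54 and 5.96 in heart tube cells, 7.22 and 7.44 in caudal-half cells, and 6.53 and 7.59 in yolk sac cells. Both heart tube arrays were the lowest, and the other tissues overlapped. Heart tube minus caudal-half cells was -1.58 ± 0.36 (95% interval -2.44 to -0.72) with an adjusted p of 0.0604, which passed with only these 2 tissues in the fit (0.0206), with limma-trend (0.0312) and with the mean of both probe sets (-0.92, adjusted p = 0.0425). Heart tube minus yolk sac cells was -1.31 ± 0.36 for Fzd5 (95% interval -2.17 to -0.45). Its adjusted p was 0.0673, and it passed with limma-trend (0.0393). With limma-trend 8 receptors were called in that comparison, 6 higher and 2 lower. The co-receptors Lrp5 and Lrp6 were not called. Lrp5 read 7.34 and 7.36 in heart tube cells, 8.31 and 7.71 in caudal-half cells, and 8.09 and 7.93 in yolk sac cells. Lrp6 read 9.49 and 9.53 in heart tube cells, 9.28 and 9.34 in caudal-half cells, and 9.66 and 9.46 in yolk sac cells. Fzd8, also named after its values were seen, read 6.54 and 7.28 in heart tube cells, 7.48 and 6.22 in caudal-half cells, and 8.50 and 8.03 in yolk sac cells. Caudal-half minus yolk sac cells was -1.41 ± 0.45 (adjusted p = 0.118). It passed with the mean of both probe sets (-1.08, adjusted p = 0.0367). With such means 3 receptors were called in that comparison, 2 higher and 1 lower. Over the 7 uncalled receptors the readings ran between 3.25 and 9.66.

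Among the antagonists, 3 of 11 (27.3%) were called higher in heart tube than in caudal-half cells, 4 of 11 (36.4%) higher in heart tube than in yolk sac cells, and 1 of 11 (9.09%) higher in caudal-half than in yolk sac cells. The shares of all genes called higher were 2.86%, 5.14% and 4.22%. Dkk1, the blocker of Lrp5 and Lrp6, read 6.17 and 6.00 in heart tube cells, 2.98 and 3.36 in caudal-half cells, and 3.22 and 3.36 in yolk sac cells. All 4 arrays of caudal-half and yolk sac cells lay within the bacterial range, so the gene stood above it in heart tube cells alone. Its heart tube mean was 2.05 above the top of that range, so by the brighter probe set, given here, differences from the other tissues are at least that. It averaged 6.08 ± 0.12 in heart tube cells, 3.17 ± 0.27 in caudal-half cells and 3.29 ± 0.10 in yolk sac cells (SD, n = 2 each). The difference was 2.91 ± 0.20 from caudal-half cells (adjusted p = 0.000966) and 2.79 ± 0.20 from yolk sac cells (adjusted p = 0.000541). Both probe sets were called in both comparisons, the second with smaller differences of 2.04 and 1.85, and both calls held in every alternative.

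Dkk3, a divergent Dkk protein whose effect on the pathway varies with the setting, read 7.28 and 7.89 in heart tube cells, 5.13 and 5.75 in caudal-half cells, and 4.88 and 5.49 in yolk sac cells. The heart tube arrays were the highest and the other tissues overlapped. It was higher in heart tube cells by 2.15 ± 0.33 against caudal-half cells (adjusted p = 0.0177) and 2.40 ± 0.33 against yolk sac cells (adjusted p = 0.00656). The mean of both probe sets gave 1.20 and 1.66, and the first call was lost without heart tube replicate 2 (0.0978) or caudal-half replicate 1 (0.0989). Frzb, a secreted relative of the Frizzled ligand-binding domain, read 5.36 and 5.29 in heart tube cells, 3.72 and 4.40 in caudal-half cells, and 3.67 and 3.91 in yolk sac cells. Its heart tube arrays were again the highest, with 1 caudal-half array and both yolk sac arrays within the bacterial range. The difference was 1.26 ± 0.25 from caudal-half cells (adjusted p = 0.0416) and 1.53 ± 0.25 from yolk sac cells (adjusted p = 0.0125), or at least 1.29 from yolk sac cells when measured to the top of the bacterial range. The first was lost without heart tube replicate 1 (0.195), heart tube replicate 2 (0.16) or caudal-half replicate 1 (0.136), and without either yolk sac array or with only these 2 tissues (0.063). The second was lost without heart tube replicate 1 (0.0775), heart tube replicate 2 (0.0667) or yolk sac replicate 1 (0.0654).

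Sfrp2, which binds ligands outside the cell, had the opposite order of the embryonic tissues. It read 8.32 and 8.53 in heart tube cells, 9.80 and 9.27 in caudal-half cells, and 7.14 and 6.26 in yolk sac cells, with no overlap. Heart tube cells stood 1.72 ± 0.33 above yolk sac cells (adjusted p = 0.0209) and caudal-half cells 2.83 ± 0.33 above them (adjusted p = 0.00492). Heart tube minus caudal-half cells, -1.11 ± 0.33 (95% interval -1.90 to -0.32), missed the threshold at 0.124. The call of heart tube against yolk sac cells was lost without heart tube replicate 1 (0.0852), heart tube replicate 2 (0.11) or yolk sac replicate 2 (0.0581). Sfrp1, of the same family, read 5.61 and 5.58 in heart tube cells, 6.20 and 5.63 in caudal-half cells, and 4.70 and 5.21 in yolk sac cells, and was not called. With the mean of its 5 probe sets heart tube minus yolk sac cells was 0.90 and passed (adjusted p = 0.0369), which makes 5 antagonists called there. The 7 uncalled antagonists read between 1.29 and 6.20, and their largest difference was 0.96.

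The genes higher in heart tube cells moved together with other differences between these samples. Cardiomyocyte genes were called higher in heart tube than in caudal-half cells for 5 of 10 and than in yolk sac cells for 7 of 10, and mesenchymal genes higher for 6 of 10 and 3 of 10, with 4 of 10 lower than in yolk sac cells. Endothelial genes were called lower in heart tube cells for 5 of 12 and 7 of 12, and higher for 1 of 12 and 0 of 12. Epithelial genes were called lower in heart tube cells for 6 of 8 and 7 of 8, and higher for 0 of 8 in both. Over all genes, 2.86% and 5.14% were called higher in these 2 comparisons, and 2.65% and 6.67% lower. The mesenchymal transcription factor Tcf21 read 6.67 and 6.94 in heart tube cells, 2.30 and 3.15 in caudal-half cells, and 2.67 and 2.81 in yolk sac cells. Pdgfra, a receptor of many mesenchymal cells, read 8.35 and 8.38 in heart tube cells, 5.48 and 5.02 in caudal-half cells, and 4.27 and 3.84 in yolk sac cells. Other genes of the mesenchymal list had another order: Lum, a matrix proteoglycan, read 2.92 and 3.07 in heart tube cells, 5.44 and 4.07 in caudal-half cells, and 8.97 and 8.42 in yolk sac cells. Visceral endoderm genes were called lower than in yolk sac cells for 8 of 10 in heart tube cells and 8 of 10 in caudal-half cells, alongside the WNT genes that were higher in those tissues. In caudal-half against yolk sac cells, where Fzd10 and Sfrp2 were higher, 2 of 8 neural genes and 2 of 8 somite and tail bud genes were called higher, while 4 of 7 erythroid genes and 1 of 6 leukocyte and megakaryocyte genes were called lower, beside 4.22% of all genes higher and 4.86% lower. In the same comparison mesenchymal genes were called lower for 6 of 10 and higher for 2 of 10, and epithelial genes lower for 3 of 8. The part of these cells in the results was not tested.

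Against yolk sac cells, 2 of the 4 effectors were called in each embryonic tissue, Lef1 as higher and Tcf7l1 as lower, and 1 of the 3 target genes, Axin2, as higher. Over all genes 11.8% were called for heart tube and 9.08% for caudal-half against yolk sac cells. Axin2, a scaffold of the complex that degrades beta-catenin and itself induced by the pathway, read 7.05 and 7.04 in heart tube cells, 7.85 and 7.80 in caudal-half cells, and 5.09 and 5.52 in yolk sac cells. The tissues did not overlap, and the yolk sac arrays were the lowest. It averaged 7.04 ± 0.01 in heart tube cells, 7.82 ± 0.04 in caudal-half cells and 5.30 ± 0.30 in yolk sac cells (SD, n = 2 each). Against yolk sac cells it was 1.74 ± 0.20 higher in heart tube cells (adjusted p = 0.00297) and 2.52 ± 0.20 higher in caudal-half cells (adjusted p = 0.00127). Its second probe set was called in both comparisons too, and both calls held in every alternative. Heart tube minus caudal-half cells was -0.78 ± 0.20 and missed the threshold at 0.0817.

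Lef1, a DNA-binding partner of beta-catenin, was called higher in both embryonic tissues than in yolk sac cells. It read 9.02 and 9.03 in heart tube cells, 9.89 and 9.64 in caudal-half cells, and 6.79 and 5.09 in yolk sac cells. The yolk sac arrays were the lowest and lay far apart, without reaching the other tissues. Against yolk sac cells it was 3.09 ± 0.50 higher in heart tube cells (adjusted p = 0.0117) and 3.83 ± 0.50 higher in caudal-half cells (adjusted p = 0.00758). Without yolk sac replicate 2 the caudal-half difference was 2.97. Heart tube minus caudal-half cells, -0.74 ± 0.50 (95% interval -1.95 to 0.47), was not called (0.481). Without heart tube replicate 1 or 2 the adjusted p against yolk sac cells was 0.0672 or 0.0664, and without caudal-half replicate 1 it was 0.0552.

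Tcf7l1, the family member that mostly represses its targets, was called lower in both embryonic tissues than in yolk sac cells. It read 7.21 and 6.998 in heart tube cells, 7.80 and 7.01 in caudal-half cells, and 8.79 and 8.48 in yolk sac cells. The yolk sac arrays were the highest and the embryonic tissues overlapped. It was -1.53 ± 0.29 in heart tube minus yolk sac cells (adjusted p = 0.0199) and -1.23 ± 0.29 in caudal-half minus yolk sac cells (adjusted p = 0.0492). The first call was lost without heart tube replicate 1 (0.0815) or 2 (0.109), or yolk sac replicate 1 (0.094) or 2 (0.0521). The second was lost without caudal-half replicate 2 (0.143), yolk sac replicate 1 (0.187) or 2 (0.0958), without either heart tube array or with only these 2 tissues (0.087), and after quantile normalization (0.0568).

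Ctnnb1, which encodes beta-catenin, was not called, with tissue means between 12.57 and 12.62. It read 12.58 and 12.60 in heart tube cells, 12.68 and 12.56 in caudal-half cells, and 12.59 and 12.54 in yolk sac cells (adjusted p = 0.936, 0.952 and 0.886). The array measures its RNA, whereas the pathway controls the protein by degradation. Tcf7l2, the fourth effector, read 9.86 and 9.82 in heart tube cells, 9.26 and 9.43 in caudal-half cells, and 9.85 and 9.69 in yolk sac cells, and was not called. Between heart tube and caudal-half cells limma and limma-trend called 0 of the 4 effectors and 0 of the 3 target genes, with 1 and 3 at an unadjusted p under 0.05. Of all genes 5.51% were called by limma in that comparison.

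Of the other target genes, Sp5, a transcription factor induced by the pathway in early embryos, was weak. It read 4.90 and 4.41 in heart tube cells, 3.88 and 4.001 in caudal-half cells, and 4.06 and 3.80 in yolk sac cells, with the heart tube arrays highest. Heart tube minus yolk sac cells was 0.72 ± 0.22 (95% interval 0.19 to 1.25, adjusted p = 0.0927), and 0.47 without heart tube replicate 1. Nkd1, an inhibitor induced as feedback, read 7.13 and 6.00 in heart tube cells, 5.47 and 5.79 in caudal-half cells, and 5.99 and 5.70 in yolk sac cells, and was not called. With the mean of its 4 probe sets heart tube minus yolk sac cells was 0.92 and passed (adjusted p = 0.0389), which makes 2 of 3 target genes called there.

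Promoters of 4 of these genes are shown because the Tcf and Lef factors bind short DNA motifs. Axin2 and Sp5 are known targets. Of the 18 called genes 12 had a promoter to search, and among these Dkk1 and Fzd7 hold a motif. The sequences are from RefSeq on GRCm38.p6 and cover the 250 bases before the annotated start, read on the strand of the gene. Capitals mark the letters searched for, which were CTTTGAT, its variant CTTTGAA, and the further variant CTTTGTT, on either strand. Where CTTTGTT lies on the opposite strand it is printed as AACAAAG. Dkk1 lies at chr19:30549497-30549746 on the minus strand, Fzd7 at chr1:59481897-59482146 on the plus strand, Sp5 at chr2:70474673-70474922 on the plus strand, and Axin2 at chr11:108920099-108920348 on the plus strand.
Dkk1: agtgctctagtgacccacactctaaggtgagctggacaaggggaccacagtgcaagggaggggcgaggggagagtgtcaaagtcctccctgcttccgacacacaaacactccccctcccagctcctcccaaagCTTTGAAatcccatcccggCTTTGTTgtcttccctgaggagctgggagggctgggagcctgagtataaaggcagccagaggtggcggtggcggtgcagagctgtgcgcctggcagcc
Fzd7: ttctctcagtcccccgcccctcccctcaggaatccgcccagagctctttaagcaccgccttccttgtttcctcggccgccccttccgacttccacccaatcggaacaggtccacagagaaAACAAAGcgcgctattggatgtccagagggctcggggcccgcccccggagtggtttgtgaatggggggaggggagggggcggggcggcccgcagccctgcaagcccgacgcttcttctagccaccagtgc
Sp5: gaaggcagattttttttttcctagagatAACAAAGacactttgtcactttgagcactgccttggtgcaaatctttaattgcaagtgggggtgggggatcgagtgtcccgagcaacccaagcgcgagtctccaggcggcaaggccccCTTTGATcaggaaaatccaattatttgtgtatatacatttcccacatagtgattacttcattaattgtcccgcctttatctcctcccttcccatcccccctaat
Axin2: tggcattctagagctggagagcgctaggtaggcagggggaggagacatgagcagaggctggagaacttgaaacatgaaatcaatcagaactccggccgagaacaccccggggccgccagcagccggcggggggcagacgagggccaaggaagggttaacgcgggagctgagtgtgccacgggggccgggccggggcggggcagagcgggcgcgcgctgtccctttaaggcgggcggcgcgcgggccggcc
Dkk1 had CTTTGAA at position -117 and CTTTGTT at -98 from its start, Fzd7 had CTTTGTT at -130, and Sp5 had CTTTGTT at -222 and CTTTGAT at -104. The Axin2 window held none of these letters. In windows that also take the first 50 bases of the transcript, 37 of the 55 WNT genes matched, with 45 promoters, of which 7 (15.6%) held a motif on either strand. Over all 32851 promoters 4558 did (13.9%), and over 15 promoters of called WNT genes 2 did (13.3%). The shares differ little, and a match is a description of the letters, not of a bound site.

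Probe sets of the same gene mostly ran the same way. Of the 33 called differences, 30 were of genes with several probe sets. In 27 of the 30 all probe sets had the same sign. A separate fit took every probe set with 1 symbol. In it all probe sets were called for 9 of the 30, and at most 1 was for 18. None was called in the opposite direction. No probe set was called there for Frzb, Fzd10 and Wnt5a in heart tube against caudal-half cells. The same held for Fzd7 in caudal-half against yolk sac cells. For Tcf7l1 in the latter comparison only the second probe set was called.

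**Figure D4:**
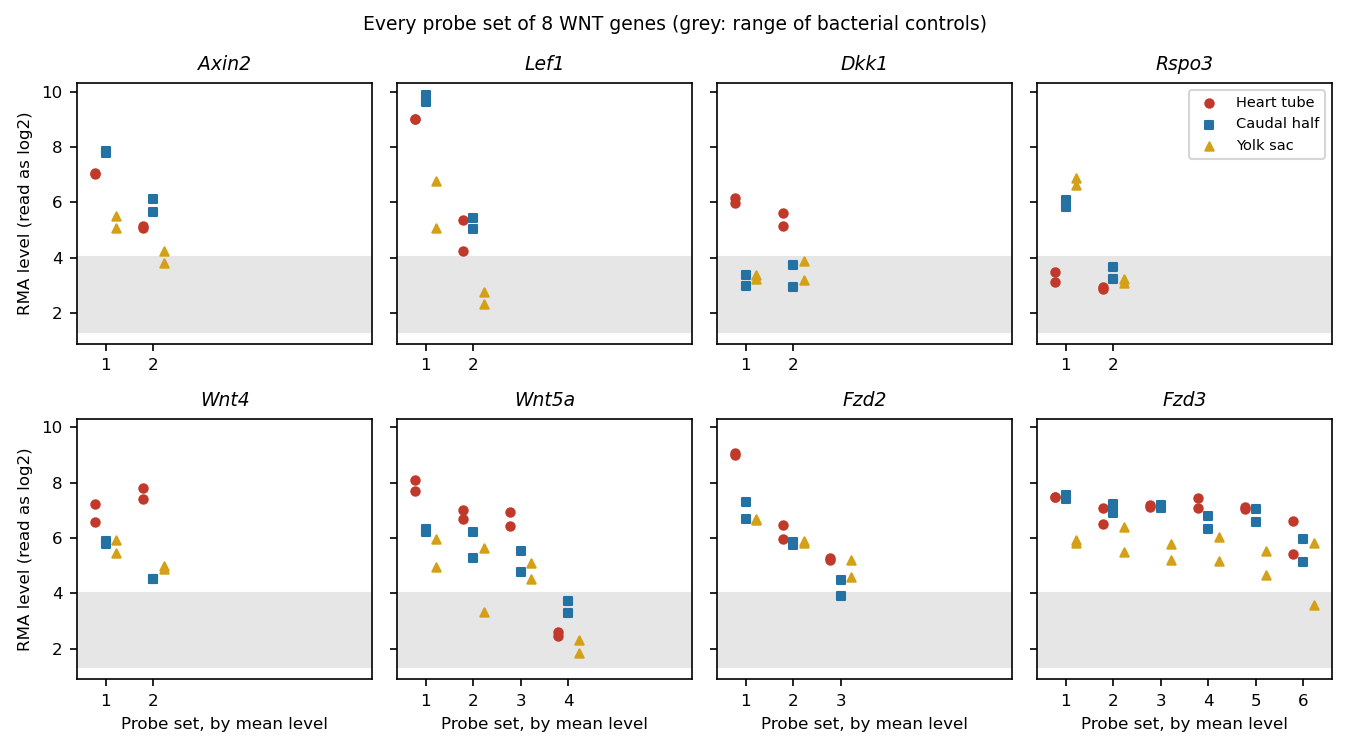
Levels (log2) of every probe set of 8 WNT genes on the 6 arrays, ordered by mean level so that 1 is the probe set used for the gene, with circles for the heart tube, squares for caudal-half, triangles for the yolk sac and a grey band for the bacterial controls. Both probe sets of Axin2, Lef1 and Dkk1 separate the same tissues, whereas the second probe set of Rspo3 lies in the grey band in all 6 samples.

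Outside the 55 genes, 56 further pathway genes were listed and 55 measured (Kremen2 was not analysed here). Heart tube against caudal-half cells called 4 higher and 2 lower, heart tube against yolk sac cells 11 higher and 2 lower, and caudal-half against yolk sac cells 8 higher and 5 lower. These were 10.9%, 23.6% and 23.6% of the measured pathway genes, against 5.51%, 11.8% and 9.08% of all genes. Their median differences were 0.14, 0.14 and 0.15. Without heart tube replicate 1 or 2 the called genes were 3 or 2 against caudal-half cells and 4 or 3 against yolk sac cells. Without caudal-half replicate 1 they were 3 for heart tube against caudal-half cells, and without yolk sac replicate 1 or 2 they were 6 or 8 for heart tube against yolk sac cells. For caudal-half against yolk sac cells there were 4 without either caudal-half array, 6 without yolk sac replicate 1 and 7 without either heart tube array.

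Prickle2, a cytoplasmic planar polarity protein, had the largest difference of these genes between heart tube and caudal-half cells. It read 8.63 and 8.96 in heart tube cells, 5.12 and 5.48 in caudal-half cells, and 7.64 and 7.61 in yolk sac cells. Its caudal-half arrays were the lowest by far: the difference was 3.49 ± 0.21 for heart tube minus caudal-half cells (adjusted p = 0.000667) and -2.32 ± 0.21 for caudal-half minus yolk sac cells (adjusted p = 0.0021). Porcn, the enzyme that attaches the lipid to WNT ligands, ran the other way. It read 4.39 and 4.79 in heart tube cells, 7.15 and 7.14 in caudal-half cells, and 5.23 and 4.97 in yolk sac cells, with both caudal-half arrays the highest. The difference was -2.56 ± 0.20 for heart tube minus caudal-half cells (adjusted p = 0.00148) and 2.04 ± 0.20 for caudal-half minus yolk sac cells (adjusted p = 0.00312). All 4 calls held in every alternative.

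Tle5, a short relative of the Groucho co-repressors, was lower in caudal-half cells, with 7.43 and 7.25 in heart tube cells, 5.59 and 4.64 in caudal-half cells, and 7.52 and 7.65 in yolk sac cells. The difference was 2.22 ± 0.31 for heart tube minus caudal-half cells (adjusted p = 0.0122) and -2.47 ± 0.31 for caudal-half minus yolk sac cells (adjusted p = 0.00667), the first lost without heart tube replicate 1 (0.0853) or 2 (0.0652). Tspan12, a partner of Fzd4 in norrin signalling, was higher in heart tube cells, with 7.02 and 7.54 there, 4.67 and 5.25 in caudal-half cells, and 4.83 and 5.48 in yolk sac cells. The heart tube arrays did not overlap the rest, and the difference was 2.32 ± 0.32 from caudal-half cells (adjusted p = 0.0116) and 2.12 ± 0.32 from yolk sac cells (adjusted p = 0.00898). Without heart tube replicate 2 these had an adjusted p of 0.0739 and 0.0581, and the first 0.073 without caudal-half replicate 1.

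Tnks, an enzyme that marks Axin for degradation, read 9.57 and 9.61 in heart tube cells, 8.67 and 8.54 in caudal-half cells, and 8.24 and 8.10 in yolk sac cells. It was highest in heart tube cells, by 0.99 ± 0.16 against caudal-half cells (adjusted p = 0.022) and 1.42 ± 0.16 against yolk sac cells (adjusted p = 0.00323), or 0.62 (0.0815) and 0.80 (0.0213) with the mean of its 5 probe sets. The first was lost without heart tube replicate 1 (0.118) or 2 (0.125) or caudal-half replicate 1 (0.0876) or 2 (0.0985). Ror2, a receptor of Wnt5a, read 6.01 and 6.13 in heart tube cells, 5.88 and 5.55 in caudal-half cells, and 3.76 and 4.48 in yolk sac cells. Like Wnt5a it was lowest in yolk sac cells, and heart tube minus yolk sac cells was 1.95 ± 0.27 (adjusted p = 0.00653), kept in every alternative. Celsr2, a planar polarity cadherin, read 8.15 and 7.36 in heart tube cells, 7.63 and 7.65 in caudal-half cells, and 6.22 and 5.30 in yolk sac cells. It was higher than in yolk sac cells by 2.00 ± 0.37 in heart tube cells (adjusted p = 0.0187) and 1.88 ± 0.37 in caudal-half cells (adjusted p = 0.0285), or 0.89 and 1.05 with the mean of both probe sets. The first was lost without heart tube replicate 1 (0.0965) or yolk sac replicate 2 (0.0607), and the second without caudal-half replicate 1 (0.122) or 2 (0.117) or yolk sac replicate 2 (0.0857).

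Cxxc4, which binds Dishevelled and inhibits the pathway, read 5.94 and 6.13 in heart tube cells, 5.45 and 4.77 in caudal-half cells, and 5.01 and 4.69 in yolk sac cells. Heart tube minus yolk sac cells was 1.19 ± 0.26 (adjusted p = 0.0345), and the call was lost without heart tube replicate 1 (0.116) or 2 (0.161) or yolk sac replicate 1 (0.0767) or 2 (0.129). Tnfrsf19, a membrane receptor of the TNF family that the pathway can induce, read 4.18 and 4.96 in heart tube cells, 6.34 and 6.46 in caudal-half cells, and 4.08 and 5.15 in yolk sac cells. Its caudal-half arrays stood above the rest, as those of Fzd10 did. Caudal-half minus yolk sac cells was 1.78 ± 0.40 (adjusted p = 0.0437), and this call was lost without caudal-half replicate 1 (0.153) or 2 (0.161), yolk sac replicate 1 (0.132), and without either heart tube array or with only these 2 tissues (0.0545).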

How the data were processed

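RNA of 6 samples, 2 biological replicates for each of 3 tissues, was measured on Affymetrix mouse arrays. Per the submitters' processing notes, the authors used RMA and affy to obtain the deposited intensity (signal) of a probe set, without stated versions. RMA subtracts background and gives all arrays 1 distribution of probe values, so differences are relative to the whole array. The deposited signals ran from 2.46 to 2172540, beyond what a scanner gives, and their natural log from 0.899 to 14.6. That log was read as the authors' log2 value; the base is not stated. Of 45101 probe sets, 64 were controls, 34945 had 1 symbol, 932 several and 9160 none in the platform annotation. For 18193 genes the brightest probe set on average stood for the gene.

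The 3 tissues were compared in 1 model in limma 3.58.1 under R 4.3.3 (lmFit, eBayes; 3 residual and 3.48 prior degrees of freedom, all 6 arrays, no covariate). Tests were two-sided, with Benjamini-Hochberg adjustment over all genes and a threshold of 0.05. The number of arrays limits the precision, with a median standard error of 0.210 for a difference. The labels call the replicates biological without saying from which embryos, so p-values measure the spread between these samples. The fit was tested on simulated data. The 55 genes, the lists of other pathway genes and cell type markers, and the promoter motifs were chosen with earlier results of these data known. Named are every called WNT gene, 12 measured genes fixed by name, and the 5 other pathway genes per comparison with the largest called difference. Values of Fzd5, Fzd8, Tcf7l2 and Nkd1, which were neither called nor fixed by name, are given besides. Same-numbered replicates did not vary together (r = 0.0468, -0.0068 and 0.0189 between tissues) and were not treated as pairs. Alternatives were a replicate block, the mean of all probe sets, leaving out dim genes, quantile normalization, log2 of the deposited signal, only the 2 tissues compared, limma-trend, and each array left out in turn. Promoters came from RefSeq on GRCm38.p6.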

Additional observations from a re-analysis of the deposited data

How the results depend on the processing

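Of the 33 called differences of WNT genes, 14 (of 9 genes) stayed past the threshold under all 12 alternatives on the same scale, 22 under all but the removal of 1 array, and 0 reversed. In fits without 1 array, the called WNT genes were 3 to 7 for heart tube against caudal-half cells, 8 to 16 for heart tube against yolk sac cells and 4 to 5 for caudal-half against yolk sac cells. The other pathway genes then numbered 2 to 7, 3 to 12 and 4 to 9. With only the 2 tissues compared, caudal-half against yolk sac cells gave 5 WNT genes and 7 other pathway genes. Heart tube against caudal-half cells gave 10 other pathway genes with the mean of all probe sets and 10 with limma-trend. A fit with the replicate number as a block gave 6, 17 and 5 WNT genes and 7, 12 and 10 other pathway genes in the 3 comparisons; under the block the WNT calls lost were Wnt5a (adjusted p = 0.0782), Frzb (0.0505) and Fzd10 (0.0884) for heart tube against caudal-half cells, Wnt4 (0.0629) for heart tube against yolk sac cells, and Fzd6 (0.0521), Fzd7 (0.0731) and Fzd10 (0.0604) for caudal-half against yolk sac cells. Fzd5 passed under it for heart tube against caudal-half cells (0.037) and for heart tube against yolk sac cells (0.0351). Over all genes 1002, 2150 and 1652 were called in the 3 comparisons, and without 1 array 376 to 899, 936 to 1794 and 638 to 1155. Fits without 1 array leave 1 sample in a tissue, which is then assumed to vary like the other tissues. The 10 WNT genes within the bacterial range on all 6 arrays have signals too weak to compare.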
